A study of Caenorhabditis elegans with 7 samples.

Results

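ATP-binding cassette (ABC) transporters form one of the large membrane protein families of *C. elegans*. The genes described here are those whose symbol carries one of the family's stems (pgp, mrp, haf, abt, wht, pmp, abcf, abch, abce or cft) followed by a number. The array holds probes for 57 such genes among 19859 genes with a matched probe, and 51 of the 57 gave a signal well above background on at least 3 of 7 arrays and were tested among 14224 genes in all. RNA came from whole N2 worms (the wild-type laboratory strain) collected on adult day 7 after culture from the L4 stage with 25 μM tomatidine, a steroidal alkaloid of unripe tomatoes, or with vehicle, 1% DMSO. There were 3 tomatidine arrays and 4 vehicle arrays of Cy3-labeled cRNA, and the comparison asks which transcripts differ after exposure to the compound. The sample labels call the control worms untreated, whereas the methods give them the vehicle. The methods also say that one hybridization used the preparations mixed in equal amounts, without naming its array, so the p values measure the spread between arrays that may not all be independent.

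ABC proteins use the energy of ATP to move substrates across membranes, and a few members have lost their membrane domains and work in the cytosol. In the worm as in vertebrates, P-glycoproteins (pgp) and multidrug resistance proteins (mrp) are best known for exporting foreign compounds, and many are made in the intestine and the excretory cell. The haf and pmp proteins are smaller transporters that work in pairs on the membranes of mitochondria, lysosome-related organelles and peroxisomes. The abt proteins resemble the ABCA transporters, which move lipids in vertebrates, and the wht proteins resemble the *Drosophila* pigment transporter white.

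No member passed limma's test after adjustment over all genes tested. Of the 51 members, 0 were higher and 0 lower in tomatidine-treated worms at an adjusted p under 0.05, against 0.0773% of all genes tested that were higher and 0 that were lower. The smallest adjusted p of the family was 0.406, for *pgp-1*. At an unadjusted p under 0.05, 4 members were higher (*pgp-1*, *pgp-13*, *abt-4* and *pgp-9*) and 0 were lower, beside 0.752% and 0.471% of all genes tested. With the arrays paired by the tags in their labels, *pgp-1* did pass, with a log2 fold change of 1.75 and an adjusted p of 0.0249. The other members did not pass with that pairing. Over all genes tested, 23 were higher with it, against 11 without it. The paired fit leaves fewer residual degrees of freedom, so its p rests more on the variance shared across genes.

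*pgp-1* encodes a P-glycoprotein known to protect worms from heavy metals and other toxic compounds. Its level, the log2 processed intensity after scaling each array to a common mean and spread, was 6.91, 7.32, 5.81 and 7.34 on vehicle replicates 1 to 4 and 8.69, 8.89 and 8.15 on tomatidine replicates 1 to 3. The lowest tomatidine array therefore lay above the highest vehicle array, and vehicle replicate 3 was the lowest of the 7. The log2 fold change was 1.73 (standard error 0.37, 95% confidence interval 0.93 to 2.53), or 3.32-fold, with an unadjusted p of 0.000371 and rank 13 of 14224 genes. Within the pairs that share a label tag, the difference was 1.37 for tomatidine replicate 1, 3.08 for tomatidine replicate 2 and 0.81 for tomatidine replicate 3. All 3 pairs differed in the same direction, as they must where the groups do not overlap. The difference was 2.01 on the slide that held vehicle replicates 1, 2 and 3 with tomatidine replicate 1, and 1.18 on the slide that held the other 3 arrays.

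The size of the *pgp-1* difference depended on how the arrays were processed. Before scaling, its processed intensity was 159, 311, 35.2 and 132 on vehicle replicates 1 to 4 and 394.5, 424.5 and 256 on tomatidine replicates 1 to 3. The spot's own median intensity was 285, 728, 209 and 199 on the vehicle arrays and 716, 433 and 351 on the tomatidine arrays. Before scaling, the groups overlapped in both signals. In the processed intensity vehicle replicate 2 lay above tomatidine replicate 3, and in the median intensity it was the highest of the 7. Vehicle replicate 2 had a local background of 202 and tomatidine replicate 1 one of 132, against 43.5 to 77.5 elsewhere. With the median intensity corrected by normexp and quantile-normalized, the log2 fold change was 0.74, and with the uncorrected median intensity, also quantile-normalized, it was 0.86. These alternatives change the signal and the normalization together, so neither choice was tested alone. A single probe on the array stands for *pgp-1*, so no second probe could be set beside it.

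**Figure D1:**
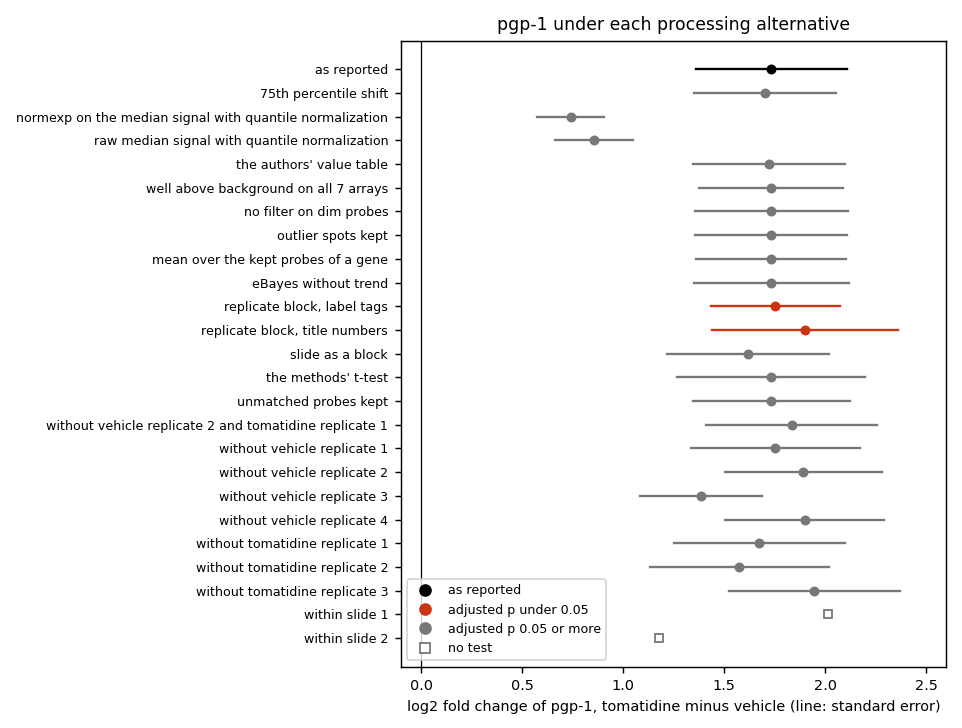
The log2 fold change of *pgp-1* (tomatidine minus vehicle, x axis) under each way of processing the arrays (y axis), with lines for the standard error. It lay between 0.74 and 2.01 throughout, and red points mark the 2 fits with arrays paired as blocks, in which the adjusted p was under 0.05.

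*pgp-13* lies between *pgp-12* and *pgp-14* on chromosome X and also encodes a P-glycoprotein. It was at 6.60, 6.68, 6.69 and 6.91 on the vehicle arrays and at 7.38, 7.46 and 7.52 on the tomatidine arrays. After scaling, the groups did not overlap and the arrays within each lay close together, with a spread that fell at percentile 1.2 of all genes tested. Before scaling, its processed intensity was 127.6, 206.6, 64.1 and 96.1 on the vehicle arrays and 167.4, 152.6 and 163.2 on the tomatidine arrays. In those unscaled values the groups overlapped, and vehicle replicate 2 was the highest of the 7. The log2 fold change was 0.74 (standard error 0.28, 95% confidence interval 0.13 to 1.35), the unadjusted p was 0.0210 from limma, and the gene did not pass after adjustment. The tag pairs differed by 0.71, 0.77 and 0.61. With normexp and quantile normalization the log2 fold change was 0.26.

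Its neighbour *pgp-14*, known for a part in the lipid barrier of the pharyngeal cuticle, was at 7.47, 7.88, 7.09 and 7.55 on the vehicle arrays and at 8.43, 7.86 and 7.79 on the tomatidine arrays. Vehicle replicate 2 lay above 2 of the 3 tomatidine arrays, so the groups overlapped. Its log2 fold change was 0.53 (standard error 0.29, unadjusted p = 0.0904 from limma), with 0.95 on the first slide, 0.28 on the second and 0.33 without tomatidine replicate 1. The third neighbour, *pgp-12*, whose promoter is widely used to mark the excretory cell, was at 5.997, 5.66, 5.35 and 5.48 with vehicle and at 4.78, 5.87 and 5.85 with tomatidine. These ranges overlapped too, and tomatidine replicate 1 was the lowest of the 7 arrays. Its log2 fold change was -0.12 (standard error 0.42). Over the 7 arrays the correlation between pairs of these 3 neighbours ran from -0.42 to 0.62, as a description of arrays that share slides and background.

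*abt-4* belongs to the ABCA-like genes. Its level was 8.74, 8.61, 7.97 and 8.33 on the vehicle arrays and 8.81, 9.62 and 8.72 on the tomatidine arrays. Tomatidine replicate 2 stood above the rest, and tomatidine replicate 3 lay just below vehicle replicate 1, so the groups overlapped. In log2 fold change it stood at 0.64 (standard error 0.28, unadjusted p = 0.0403 from limma), and it was 0.36 without tomatidine replicate 2. The tag pairs differed by 0.21, 1.65 and 0.39.

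*pgp-9* was at 10.67, 11.67, 10.43 and 11.15 on the vehicle arrays and at 11.75, 11.65 and 11.26 on the tomatidine arrays. Vehicle replicate 2 lay within the range of the tomatidine arrays. This gave a log2 fold change of 0.57 (standard error 0.27, unadjusted p = 0.0495 from limma), and the tag pairs differed by 0.09, 1.22 and 0.11. For *pgp-1*, *pgp-9*, *pgp-13*, *pgp-14* and *abt-4* alike, the pair of tomatidine replicate 2 with vehicle replicate 3 gave the widest of the 3 differences. Vehicle replicate 3 was the lowest array for *pgp-1*, *pgp-9*, *pgp-14* and *abt-4*. Without it, *pgp-1* and *pgp-13* were the members higher at an unadjusted p under 0.05, and the log2 fold change of *pgp-1* was 1.39.

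**Figure D2:**
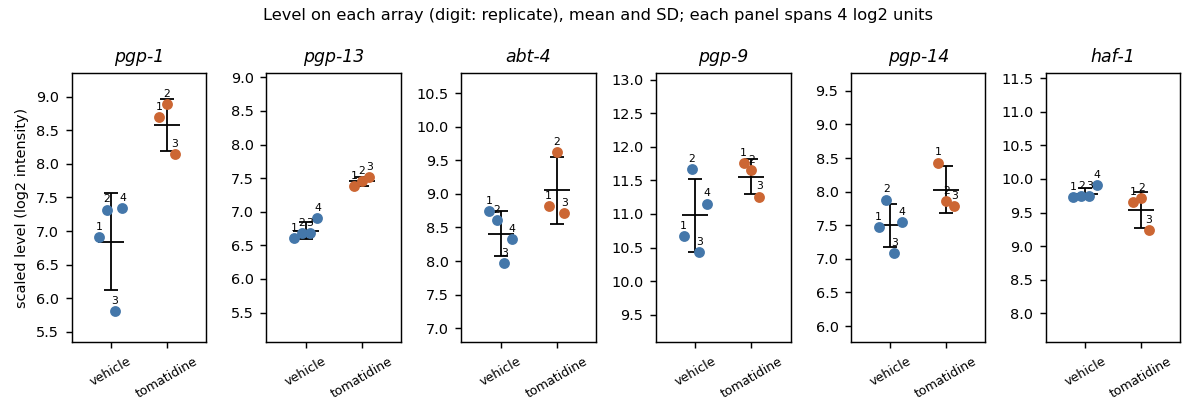
Scaled level (log2 intensity, y axis) of 6 members on each vehicle and tomatidine array (x axis), with digits for the replicate and bars for the mean and SD. The groups do not overlap for *pgp-1* and *pgp-13* (higher with tomatidine) or *haf-1* (lower), and overlap for *abt-4*, *pgp-9* and *pgp-14*.

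The z-ratio of the methods divides a gene's difference in mean z-score by the SD of that difference across genes, and was at least 1.5 for 5 members, *pgp-1*, *pgp-13*, *abt-4*, *pgp-9* and *pgp-14*. It reached this value in 5.29% of all genes tested. It was at most -1.5 for 2 members, *wht-6* and *wht-9*, beside 3.68% of all genes tested. *wht-9* was well above background on only 4 of the 7 arrays. Groups that did not overlap with tomatidine higher were found for 2 members, beside 0.816% of all genes tested, and with tomatidine lower for 1 member, *haf-1*, beside 1.27%. In 44 members, or 86.3%, the log2 fold change was smaller than 0.30 in size, beside 82.3% of all genes tested. The median log2 fold change was 0.03 over the members and -0.03 over all genes tested.

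**Figure D3:**
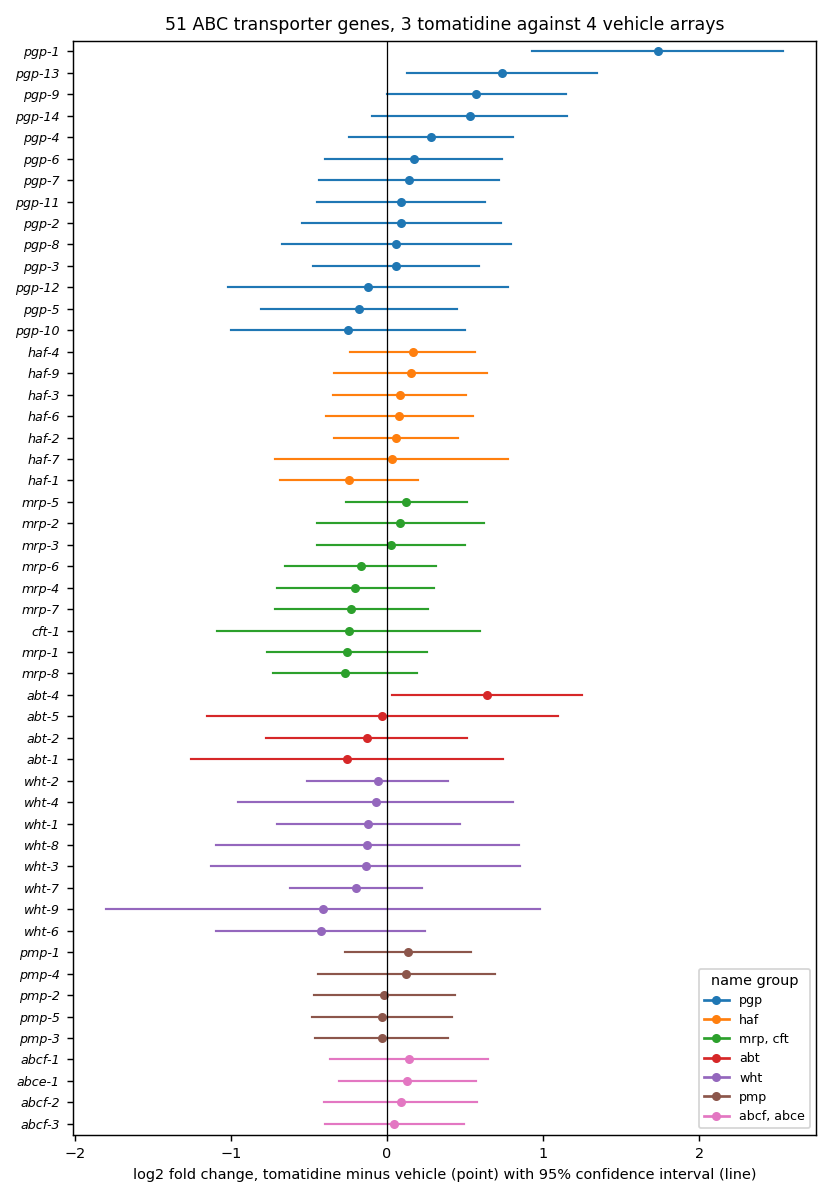
Log2 fold change (tomatidine minus vehicle, x axis) of the 51 members tested (y axis), grouped by name, with 95% confidence intervals. *pgp-1* stands apart at 1.73, and 44 members lie within 0.30 of 0.

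The 14 pgp genes tested ran from -0.25 (*pgp-10*) to 1.73 in log2 fold change, with 11 above 0 (52.9% of all members and 45.3% of all genes tested were above 0), 3 below 0 and a median of 0.12. Over the 22 alternatives, 6 to 13 of them lay above 0. *pgp-2*, which is needed to form the gut granules, the lysosome-related organelles of the intestine, was at 7.72, 7.89, 7.35 and 8.33 with vehicle and at 7.53, 8.09 and 8.12 with tomatidine. The groups overlapped, and the log2 fold change was 0.09 (standard error 0.30). *pgp-3*, known for resistance to colchicine and chloroquine, was at 10.40, 10.90, 9.97 and 10.83 with vehicle and at 10.54, 10.29 and 10.92 with tomatidine. Its log2 fold change was 0.06 (standard error 0.25), with overlapping groups. The adjacent *pgp-4* was at 9.41, 9.05, 9.06 and 9.92 with vehicle and at 9.72, 9.48 and 9.72 with tomatidine. Its highest array was vehicle replicate 4, and the log2 fold change of 0.28 (standard error 0.25) turned to -0.32 on the second slide. A run of 4 adjacent genes on chromosome X, *pgp-5*, *pgp-6*, *pgp-7* and *pgp-8*, had log2 fold changes of -0.18, 0.17, 0.14 and 0.06. *pgp-11* stood at 0.09.

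The 9 mrp and cft genes tested had a median of -0.20, with 3 above 0 and 6 below 0, and ran from -0.27 to 0.12. Over the alternatives, 5 to 8 of the 9 lay below 0. *mrp-1*, which like *pgp-1* is known for protection from heavy metals, was at 11.04, 11.25, 10.24 and 11.19 with vehicle and at 10.62, 10.69 and 10.72 with tomatidine. The tomatidine arrays lay within the vehicle range, whose lower end was vehicle replicate 3. The log2 fold change was -0.26 (standard error 0.24), and it was -0.48 without that array, where the unadjusted p from limma was under 0.05, and -0.15 without vehicle replicate 2. Of the 3 kept probes of *mrp-1* this one gave the lowest value, the other probes giving -0.09 and -0.01, and the mean over all 3 gave -0.12. *mrp-8* was at 10.13, 9.54, 9.92 and 10.06 with vehicle and at 9.50, 9.59 and 9.83 with tomatidine, a log2 fold change of -0.27 (standard error 0.22). *mrp-7* was at 11.46, 11.78, 11.69 and 11.498 with vehicle and at 11.55, 10.80 and 11.78 with tomatidine. On the probe used, its log2 fold change of -0.23 (standard error 0.23) rested on tomatidine replicate 2, without which it was 0.06. The other kept probes of *mrp-7* gave -0.34, -0.08 and 0.10 over all arrays, and the mean over the 4 gave -0.14. *mrp-5*, the heme exporter of the intestine, was at 11.62, 11.29, 11.36 and 11.51 with vehicle and at 11.71, 11.52 and 11.47 with tomatidine. The groups overlapped, and its log2 fold change was 0.12 (standard error 0.18). *cft-1*, named for its resemblance to the human cystic fibrosis channel, showed a log2 fold change of -0.25 with a 95% confidence interval of -1.09 to 0.60.

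All 7 haf genes tested lay between -0.24 and 0.17, with 6 above 0 and a median of 0.08, and 3 to 6 lay above 0 over the alternatives. *haf-1*, which exports peptides from mitochondria and acts in the mitochondrial unfolded protein response, was at 9.73, 9.74, 9.75 and 9.91 with vehicle and at 9.66, 9.72 and 9.24 with tomatidine. Every tomatidine array lay below every vehicle array, but for replicates 1 and 2 by small margins. The log2 fold change was -0.24 (standard error 0.21), with an unadjusted p of 0.260 from limma. Without tomatidine replicate 3 it was -0.09, and it was -0.08 on the first slide and -0.43 on the second. *haf-4* and *haf-9*, which act together at gut granules, had log2 fold changes of 0.17 and 0.15. *haf-4* was at 11.90, 11.72, 11.88 and 12.19 with vehicle and at 11.94, 12.07 and 12.25 with tomatidine. *haf-9* was at 10.30, 10.22, 9.84 and 10.58 with vehicle and at 10.39, 10.07 and 10.69 with tomatidine. For both, the highest array was tomatidine replicate 3 and the groups overlapped. *haf-6*, needed for efficient RNA interference, was at 10.39, 11.01, 10.34 and 10.80 with vehicle and at 10.73, 10.46 and 10.94 with tomatidine. These ranges overlapped, with a log2 fold change of 0.08 (standard error 0.22).

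All 8 wht genes tested had a log2 fold change below 0, from -0.43 to -0.06, with a median of -0.13 and 0 past the test. This shared sign did not hold under every alternative, and without tomatidine replicate 1 or with the label tags as a block 4 of the 8 lay above 0. *wht-6* was at 7.98, 7.12, 7.78 and 7.56 with vehicle and at 6.81, 7.14 and 7.59 with tomatidine. The groups overlapped, and the log2 fold change was -0.43 (standard error 0.31), with -0.81 on the first slide and -0.19 on the second. It was -0.24 without tomatidine replicate 1. *wht-7* was at 14.16, 14.50, 14.28 and 14.11 with vehicle and at 14.06, 13.91 and 14.22 with tomatidine, with a log2 fold change of -0.20 (standard error 0.20). *wht-1*, also needed for RNA interference, was at 8.09, 8.37, 7.97 and 8.79 with vehicle and at 7.96, 8.47 and 8.12 with tomatidine. The groups overlapped for both, and *wht-1* showed a log2 fold change of -0.12 (standard error 0.27).

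Several wht genes were low on the arrays with the highest background. Negative control spots gave a net signal of 424.4 on vehicle replicate 2 and 237.2 on tomatidine replicate 1, against 75.1 to 114.4 elsewhere. The median deviation of the 8 wht genes from their mean over the 7 arrays was -0.27 and -0.47 on those arrays, and lay between 0.06 and 0.43 on the others. *wht-9* gave 3.46 on vehicle replicate 2 and 3.19 on tomatidine replicate 1, against 4.88 to 5.79 on the others. On vehicle replicate 2, 3.46 was also the value of probes never well above background, such as that of *pgp-15*, so it is a floor. In *wht-3*, *wht-6*, *wht-8* and *wht-9* these arrays were the lowest of the 7. For *wht-6*, tomatidine replicate 2 lay close to vehicle replicate 2, at 7.14 against 7.12. Not all members of the group followed, since *wht-7* was highest on vehicle replicate 2 and *wht-1* lay above its mean there, as *wht-2* did on tomatidine replicate 1. The abt genes were as low on these arrays, with median deviations of -0.32 and -0.47. The part of this background in the log2 fold changes was not tested. The count of members with a z-ratio of at most -1.5 was 0 without both arrays, 5 without vehicle replicate 2 alone and 0 without tomatidine replicate 1 alone. It was also 0 without vehicle replicate 1 or vehicle replicate 4, where the background was low.

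**Figure D4:**
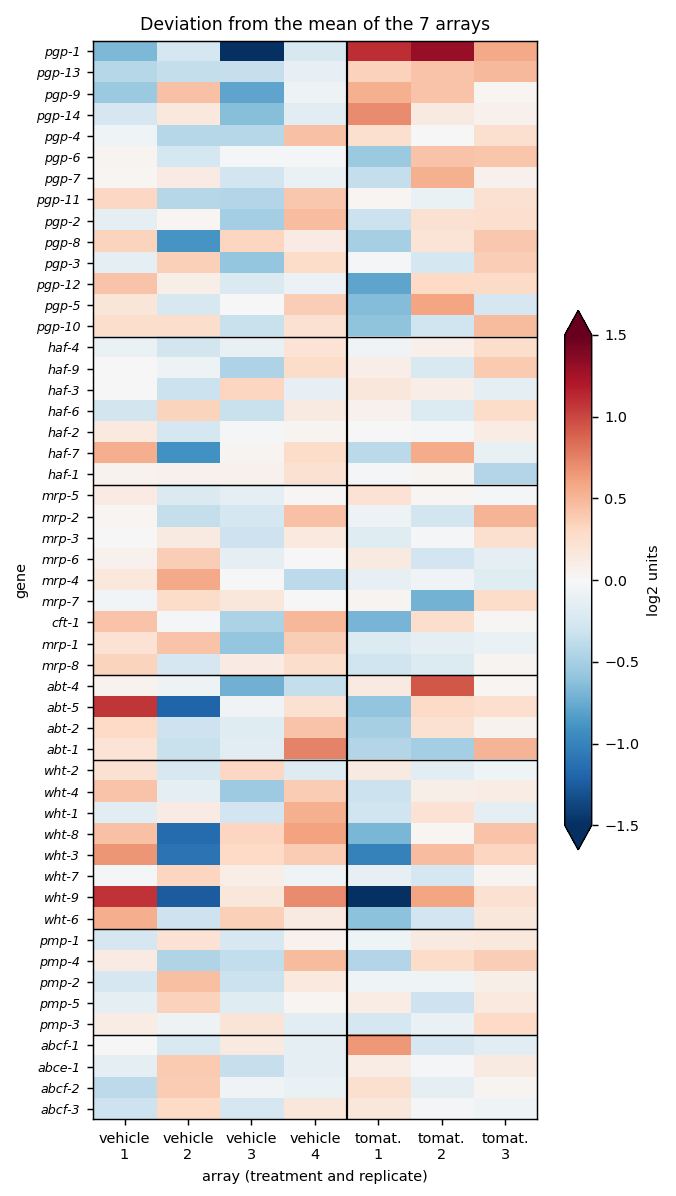
Deviation of each member tested (y axis) from its mean over the 7 arrays (x axis), in log2 units, with name groups parted by lines and colors ending at 1.5 in either direction. *pgp-1* is low on all vehicle and high on all tomatidine arrays, whereas *wht-3*, *wht-8* and *wht-9* are low on vehicle replicate 2 and tomatidine replicate 1.

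Apart from *abt-4*, the abt genes tested were *abt-1*, *abt-2* and *abt-5*, with log2 fold changes of -0.26, -0.13 and -0.03. The interval of *abt-5* ran from -1.15 to 1.09. The 5 pmp genes, some of which encode peroxisomal transporters of fatty acyl compounds, lay between -0.04 and 0.13. *pmp-4* was at 10.85, 10.27, 10.35 and 11.20 with vehicle and at 10.28, 11 and 11.09 with tomatidine, with a log2 fold change of 0.12 (standard error 0.26). *pmp-3*, a common reference transcript in quantitative PCR of worms, ran from 12.73 to 13.10 with vehicle and from 12.64 to 13.20 with tomatidine. For both, the vehicle and tomatidine arrays overlapped. The adjacent *pmp-1* and *pmp-2* on chromosome II followed each other over the 7 arrays (r = 0.86, as a description), with log2 fold changes of 0.13 and -0.02.

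The abcf and abce proteins lack membrane domains and act at the ribosome. On the probes used, all 4 had log2 fold changes above 0, from 0.05 to 0.14, but without tomatidine replicate 1 3 of the 4 lay below 0. The other kept probes of *abcf-1* gave 0.37, -0.11 and -0.12, and that of *abcf-2* gave 0.46. *abce-1*, whose yeast and mammalian relative recycles ribosomes, was at 10.99, 11.52, 10.78 and 10.99 with vehicle and at 11.23, 11.11 and 11.26 with tomatidine. *abcf-3*, a relative of yeast GCN20, was at 13.16, 13.77, 13.21 and 13.64 with vehicle and at 13.63, 13.45 and 13.39 with tomatidine. Vehicle replicate 2 was the highest array for both, so the tomatidine arrays lay inside the vehicle range. The log2 fold changes were 0.13 and 0.05, each with a standard error of 0.21.

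The 6 genes not tested were *abch-1*, *abt-3*, *abt-6*, *haf-8*, *pgp-15* and *wht-5*. *abch-1* was well above background on 2 arrays, with a processed intensity of 6.49 to 47.7, and the other 5 on 0 arrays. Of the 51 tested, 44 were well above background on all 7 arrays, and *abt-1*, *abt-5*, *pgp-12*, *wht-3*, *wht-4*, *wht-8* and *wht-9* on fewer. The standard errors ran from 0.18 to 0.65 with a median of 0.25, against 0.26 over all genes tested. The 95% confidence interval lay within 1 log2 unit of 0 for 37 members and within 2 for 50, the exception being *pgp-1*. Where several probes of a gene were kept, as for 12 members, their log2 fold changes differed in sign for 8. The spread was at most 0.49, apart from *mrp-6*, whose 7 probes ran from -0.17 to 0.85. The 0.85 came from a dim probe, well above background on 3 arrays, and the next highest probe gave 0.15.

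Across the members, 9 were higher in all 3 tag pairs and 4 lower in all 3, beside 11.1% and 12.6% of all genes tested. The 2 slides gave the same sign for 31 of 51 members. The share of all genes tested was not computed here, so nothing is read from this count. On chromosome X lay 16 of the 51, or 31.4%, against 13.6% of all genes tested. The intestine markers, whose cells make many of these transporters, had a mean level of 12.64 to 13.30 on vehicle and 12.90 to 13.22 on tomatidine arrays, a difference of 0.21 over 8 genes. The excretory cell markers differed by 0.03 over 2 genes. The widest difference among the 9 marker lists was 0.58, for 3 hypodermis genes (9.56 to 10.68 with vehicle, 10.26 to 11.29 with tomatidine). A single gene carried it, *rol-6*, at 7.19, 3.46, 3.86 and 6.97 with vehicle and at 5.67, 7.12 and 8.61 with tomatidine (log2 fold change 1.77, standard error 0.88). Its 3.46 on vehicle replicate 2 was the floor of that array. *col-19* and *lin-26* stood at -0.01 and -0.004. The part of these markers in the members' values was not tested. In whole worms, fewer cells of a type and less RNA per cell cannot be told apart.

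The genes whose levels over the 7 arrays were most like those of *pgp-1* were *E02C12.6* (r = 0.992), *nspg-10* (r = 0.974) and the cytochrome P450 genes *cyp-34A8* (r = 0.969), *cyp-33C2* (r = 0.966) and *cyp-33A1* (r = 0.953). Cytochrome P450 enzymes oxidize lipids and foreign compounds. These correlations describe 7 arrays with shared slides and background, and they were picked as the highest of 14224. *E02C12.6* was at 6.19, 7.23, 5.13 and 7.35 with vehicle and at 9.57, 10.08 and 8.68 with tomatidine, and it was among the 11 genes past the test. *cyp-33C2* was at 7.33, 7.52, 6.81 and 8.02 with vehicle and at 9.27, 9.46 and 8.34 with tomatidine, with a log2 fold change of 1.60 and an adjusted p of 0.359 from limma. Among the members, *pgp-13*, *pgp-9*, *pgp-14* and *abt-4* followed *pgp-1* at r of 0.86, 0.85, 0.85 and 0.83. They also had the highest moderated t of the family after *pgp-1*. Group means were not removed before any of these correlations, so a shared difference between the groups by itself raises r.

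Related genes gave no call either. The 4 ABC genes that carry other names were *ced-7*, which acts in the engulfment of dying cells (log2 fold change -0.37, standard error 0.23), *abcx-1* (-0.19), *hmt-1*, a heavy metal tolerance factor (-0.10), and *abtm-1*, a mitochondrial iron-sulfur transporter (-0.01). In lists of genes that work beside the members, 0 of 12 gut granule genes, 0 of 9 of the mitochondrial unfolded protein response, 0 of 16 peroxisome genes, 0 of 8 engulfment genes, 0 of 6 heme genes, 0 of 19 translation genes and 0 of 19 regulators of the response to foreign compounds and stress passed in either direction. The median log2 fold changes of these 7 lists lay between -0.13 and 0.12. At an unadjusted p under 0.05 from limma, 2 of their genes were lower and 0 higher, beside 0.471% and 0.752% of all genes tested. *acox-1.2*, a peroxisomal acyl-CoA oxidase, was at 8.13, 8.02, 6.94 and 7.70 with vehicle and at 6.28, 6.67 and 7.11 with tomatidine. Vehicle replicate 3 lay within the tomatidine range, and the log2 fold change was -1.01 (standard error 0.35, unadjusted p = 0.0115 from limma). *ced-5*, an engulfment gene, was at 13.76, 13.42, 13.90 and 13.25 with vehicle and at 13.13, 12.84 and 13.35 with tomatidine. Here too the groups overlapped, and the log2 fold change was -0.48 (standard error 0.22, unadjusted p = 0.0437 from limma).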

How the data were processed

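The authors extracted 7 scanner files with Feature Extraction 11.5.1.1, and the deposited processed signal is an intensity, corrected for background but not between arrays. The file headers record a multiplicative trend fit above 0 for 6 arrays and one of 0 for vehicle replicate 2, where this correction appears not to have been made. Median signals of spot and background were deposited as intensity too, and stood in for mean signals, which were not used here. A value table deposited by the authors gives a score for each probe, its log intensity as a z-score within the array. The members and lists were chosen with earlier results of these data known.

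Control and outlier spots were left out, and 34544 of 43603 probes were matched to a gene through RefSeq names of assembly WBcel235. Levels are log2 intensities as z-scores, rescaled to the mean SD (4.05) and mean (7.53) of the arrays. Probes well above background on fewer than 3 arrays were dropped, and the brightest kept probe stood for its gene. limma 3.58.1 under R 4.3.3 (lmFit, eBayes with trend, two-sided, Benjamini-Hochberg over 14224 genes, threshold 0.05) compared the groups with 5 residual degrees of freedom. Only the limma fit was tried on simulated data, with independent noise and added changes larger than that of any member. Probe matching, scaling and blocks were not simulated, so smaller changes and shared background were not covered. The number of arrays limits the precision.

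Members named with values on every array are the 6 with the highest and the 6 with the lowest moderated t, those at an unadjusted p under 0.05, and those listed by hand for a known role. Tags in the labels pair tomatidine replicates 1, 2 and 3 with vehicle replicates 2, 3 and 4. Deviations from the group means across genes gave r of 0.61, 0.19 and 0.51 for these pairs, and they were taken as pairs since each exceeded 0.1. The pairs at 0.61 and 0.51 also share a slide. Arrays that share neither tag nor slide reached 0.35, for vehicle replicate 1 with tomatidine replicates 2 and 3, so the correlations do not set the tags apart from other pairings. Vehicle replicate 1 has no partner and adds nothing to the blocked comparison. The alternatives were other scalings, filters and probe rules, blocks, the methods' t-test and leaving out arrays.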

Additional observations from a re-analysis of the deposited data

Results flagged for a closer look

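In 3 of the 51 members, 1 vehicle array stood apart from the other 3 by more than Dixon's 95% limit for the gap to the nearest array over the range. Chance alone gives such a flag in about 1 in 20 groups of this size. *pgp-10* was at 6.41 on vehicle replicate 3 and between 6.97 and 7.01 on the other vehicle arrays, a ratio of 0.943. *haf-1* was at 9.91 on vehicle replicate 4 and between 9.73 and 9.75 on the others, a ratio of 0.901. *wht-8* was at 5.21 on vehicle replicate 2 and between 6.69 and 6.96 on the others, a ratio of 0.844. That array also had the highest negative control signal of the 7, at 424.4, and whether this bears on *wht-8* was not tested.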

How the results depend on the processing

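*pgp-1* was higher with tomatidine under all 24 alternatives, with a log2 fold change between 0.74 and 2.01 and an unadjusted p under 0.05 in 22 of 22 fits that gave one. The count of members past the test was 0 as reported and 1 with the label tags or the title numbers as a replicate block, that member being *pgp-1* in both (title numbers, log2 fold change 1.90, adjusted p = 0.0213). The title numbers gave r of -0.53, -0.45 and -0.33 between same-numbered arrays. With them as a block the standard error of *pgp-1* was 0.46, against 0.37 as reported, though its unadjusted p was smaller. Both blocks leave fewer residual degrees of freedom, so their p values rest more on the variance shared across genes. With the title numbers the p rested almost wholly on that shared variance, so the spread of *pgp-1* itself hardly entered. The block by title number also called 1 gene of the related lists, *ahr-1*, which stood at 12.51 on vehicle replicate 2 and at 4.72 to 6.10 on the others. No other member's call changed under a block. Over the whole table, 11 genes were higher as reported, 23 with the tag block, 28 with the title block (1 lower), 8 with the slide as a block and 0 with the methods' t-test. The count of members higher at an unadjusted p under 0.05, 4 as reported, was 2 with normexp, the raw median signal, limma without trend, the title-number block, the slide block or the methods' t-test. Leaving out 1 array gave 1 to 5, with 2 without vehicle replicate 1 or 3 and 1, *pgp-1*, without tomatidine replicate 2. The count lower at that threshold, 0 as reported, was 0 to 1 with 1 array left out. Members with a z-ratio of at least 1.5 numbered 3 to 5 with 1 array left out, with 3 without vehicle replicate 3 or tomatidine replicate 1. Members with a z-ratio of at most -1.5, 2 as reported, numbered 1 with normexp, the raw median signal, the authors' table, the filter on all 7 arrays or outlier spots kept. They numbered 0 with no filter, either replicate block, unmatched probes kept or without both vehicle replicate 2 and tomatidine replicate 1, 6 with the slide block, and 0 to 5 with 1 array left out (0 without vehicle replicate 1 or 4 or tomatidine replicate 1, 5 without vehicle replicate 2, 4 without tomatidine replicate 3). The median log2 fold change of the members lay between -0.10 and 0.09 throughout. The causes were not tested. With 3 tomatidine arrays and a median standard error of 0.25, small changes in most members could not be told from 0.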
